A study of Homo sapiens with 4 samples.

Results

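Expression was described for 9 genes that encode sensors of RNA and the proteins that carry their signal: *RIGI*, *IFIH1*, *DHX58*, *MAVS*, *TLR3*, *EIF2AK2*, *TBK1*, *IRF3* and *IRF7*. The genes were chosen by name, and the probes by the RefSeq accession printed for each probe on the array. This gave 15 probes of the 31104 that could be named, and 9 genes of 22439. All 15 probes were called well above background by the scanner software on each of the 4 arrays.

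All RNA came from A549, a long-established line of human lung adenocarcinoma cells. Each miRNA strand, *miR-486-5p* or *miR-486-3p*, was transfected in 1 sample, and 2 further samples were mock cells, each sample on an array of its own. Both strands come from the same precursor, and the study asked which genes each strand controls in these cells. The transfection reagent was Lipofectamine RNAiMAX, and the mock cells received this reagent with no small RNA, so the presence of a transfected RNA and the sequence of that RNA cannot be told apart in these comparisons. The labels give neither dose nor time for the arrays. All 4 arrays lay on 1 slide. The arrays had signals of 105 (*miR-486-5p*), 93.1 (*miR-486-3p*) and 114 (both mock arrays) at their 75th percentile, and between 30690 and 31516 of 58201 probes were well above background. The labels do not say whether the mock samples came from separate cultures, and a p-value then measures the spread between these 2 arrays, which may be technical.

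Most human cells carry sensors that recognize RNA of an unusual form or in an unusual place. RIG-I (*RIGI*) and MDA5 (*IFIH1*) are helicases that bind double-stranded RNA in the cytosol and signal through *MAVS*, an adaptor on the mitochondrial surface. LGP2 (*DHX58*) has the helicase of this family but lacks the signaling domains, and it modulates the other members. *TLR3* binds double-stranded RNA in endosomes. PKR (*EIF2AK2*) is a kinase that, once bound to double-stranded RNA, phosphorylates the initiation factor eIF2 alpha and slows translation. *TBK1* is the kinase on which the adaptors converge. It phosphorylates *IRF3* and *IRF7*, the transcription factors that switch on interferon genes. Much of this signal passes through phosphorylation and protein assembly, which an array of mRNA does not measure. Several of the sensor genes are themselves induced by interferon.

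Interferon acts on promoters through short elements bound by interferon regulatory factors and STAT proteins. The promoter windows of the sensor genes are shown for that reason, before the values. RefSeq windows of 300 bases on GRCh38.p14, from 250 bases before the gene start to 50 bases after it, were at hand for 6 of the 9 genes (*RIGI*, *IFIH1*, *MAVS*, *TLR3*, *EIF2AK2* and *TBK1*). The core of the interferon-stimulated response element was searched as GAAA, then 2 bases of any kind, then GAAA, and the core of the gamma-activated site as TTCNNNGAA, on both strands. The former was found in 3 of the 6 windows and in 3.57% of all 35116 windows. The latter was found in 1 of the 6 and in 7.66% of all windows. Each match is given below with flanking bases, 5′ to 3′ on the strand of the gene, with the match in capitals.
*IFIH1* match 1 (chr2:162318686-162318715, minus strand): gaagagaatcGAAACAGAAAccaaagtcag
*IFIH1* match 2 (chr2:162318818-162318847, minus strand): tcgctttcctTTTCTGTTTCccgcggtgtc
*IFIH1* match 3 (chr2:162318824-162318853, minus strand): gagaattcgcTTTCCTTTTCtgtttcccgc
*TLR3* interferon-stimulated response element core (chr4:186069132-186069161, plus strand): cattttttttcaagctttacTTTCACTTTC
*TLR3* gamma-activated site core 1 (chr4:186068968-186068997, plus strand): ctgtgaccctTTCAATGAAatccaaggatc
*TLR3* gamma-activated site core 2 (chr4:186069096-186069125, plus strand): ccctttgcccTTCTTGGAAtgcaccaaaca
*EIF2AK2* interferon-stimulated response element core (chr2:37156977-37157006, minus strand): gggaaggcggagtccaagggGAAAACGAAA
All 3 *IFIH1* matches are to the interferon-stimulated response element core. Matches 2 and 3 of *IFIH1* overlap and lie on the opposite strand to the gene, as does the response element core of *TLR3*. The response element cores of *TLR3* and *EIF2AK2* cross the annotated gene start, while those of *IFIH1* and both gamma-activated site cores of *TLR3* lie upstream of it. The windows of *RIGI*, *MAVS* and *TBK1* held neither core. A match of letters is a description of these windows, not evidence that a factor binds there.

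Each level below is a log2 signal relative to the 75th percentile of its array, and each difference is the log2 level on a transfected array less the average level of the mock pair. Levels of different probes are not comparable with each other. The difference of a gene is the mean over its probes. A difference above 0.5 or below -0.5 was counted as higher or lower. limma was fitted to the 4 arrays, with the 2 mock arrays giving the only residual degree of freedom, so the fit takes the spread of transfected cells to equal that seen in mock cells. A gene was called if at least 1 of its probes had a Benjamini-Hochberg adjusted p under 0.05 over 33498 probes. Across probes well above background on all 4 arrays, mock 1 and mock 2 differed with an SD of 0.196, and 2.80% of probes differed by more than 0.5. For the 15 probes of the 9 genes, the gap between the mock arrays was 0.0105 to 0.499, with a median of 0.0946.

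Of the 9 genes, limma called 7 after *miR-486-3p* but 2 after *miR-486-5p*, and the former strand had more calls across the array as well. After *miR-486-3p*, 5 of the 9 genes were above 0.5 (*DHX58*, *TLR3*, *EIF2AK2*, *TBK1* and *IRF7*), while 30.4% of 16446 measured genes were. *MAVS* and *IRF3* were below -0.5, that is 2 of 9, against 27.2% of measured genes. *RIGI* and *IFIH1* lay between. The median over the 9 genes was 0.56, with 0.06 over all measured genes. limma called 5 genes higher (*DHX58*, *TLR3*, *EIF2AK2*, *TBK1* and *IRF7*) and 2 lower (*MAVS* and *IRF3*), beside 31.9% of 16662 tested genes called higher and 31.6% called lower. After *miR-486-5p*, 1 gene was above 0.5 (*IRF7*) and 1 below -0.5 (*MAVS*), with 13.8% and 15.9% of 16024 measured genes on these sides, and the median over the 9 genes was 0.04, with 0.03 over all measured genes. limma called *IRF7* higher and *MAVS* lower, beside 3.58% of tested genes called higher and 6.66% called lower. The lower share of 2 of 9 after *miR-486-3p* and each count after *miR-486-5p* were near the background shares. These counts depend on the scaling. When each array was scaled to its median instead, the median of all genes after *miR-486-3p* moved by -0.40 to -0.35, that of the 9 genes moved to 0.16, and limma called *DHX58* higher and *MAVS* and *IRF3* lower but no longer *TLR3*, *EIF2AK2*, *TBK1* or *IRF7*. The split over all tested genes was then 3307 higher and 7821 lower, in place of 5309 and 5261.

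**Figure D1:**
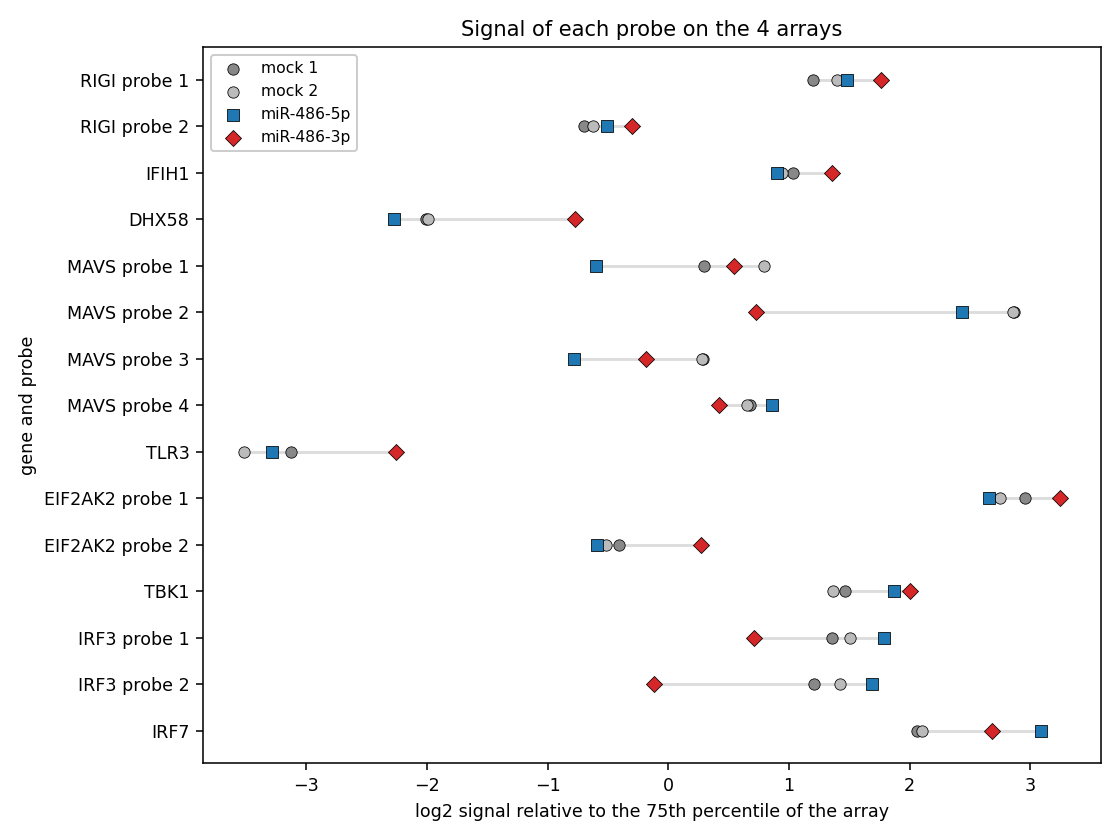
Log2 signal of each of the 15 probes relative to the 75th percentile of its array (x axis), by gene and probe (y axis), with 1 point per array and a grey line over the range. The *miR-486-3p* point lies to the right of both mock points for *DHX58*, *TLR3* and both *EIF2AK2* probes and to the left for both *IRF3* probes, and the 4 *MAVS* probes do not share 1 order.

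Of the cytosolic helicases, *DHX58* rose after *miR-486-3p*, while *RIGI* and *IFIH1* did not pass the test after either strand in the main fit. Probe A_23_P38346 of *DHX58* was at -2.01 and -1.99 in mock cells, at -2.27 after *miR-486-5p* and at -0.77 after *miR-486-3p*. The array of *miR-486-3p* stood far above the other 3, and that of *miR-486-5p* was a little below both mock arrays. The difference after *miR-486-3p* was 1.23 ± 0.09 (SE), a 2.34-fold rise with a limma adjusted p of 0.00931. Of all measured genes, 10.5% had a larger difference after this strand. After *miR-486-5p* the difference was -0.27 ± 0.09 (SE) with a limma adjusted p of 0.145. Normexp background correction with an offset of 50, which compresses dim probes, brought the rise of *DHX58* to 0.56.

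*RIGI* was read by 2 probes. Probe A_33_P3372910 was at 1.20 and 1.40 in mock cells, at 1.48 after *miR-486-5p* and at 1.76 after *miR-486-3p*. Probe A_33_P3418170 was at -0.70 and -0.62 in mock cells, at -0.50 after *miR-486-5p* and at -0.30 after *miR-486-3p*. On both probes the arrays came in the same order, with both transfected arrays above both mock arrays and *miR-486-3p* highest. The differences after *miR-486-3p* were 0.46 ± 0.14 (SE) and 0.36 ± 0.10 (SE), and limma gave them adjusted p-values of 0.0804 and 0.0665. After *miR-486-5p* they were 0.18 and 0.16, with limma adjusted p-values of 0.406 and 0.324. The gene-level difference of 0.41 after *miR-486-3p* was exceeded by 34.1% of measured genes, and under median scaling it was 0.01. limma did call *RIGI* higher after *miR-486-3p* when only probes well above background on all 4 arrays were tested, with normexp and with an intensity trend.

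*IFIH1*, read by probe A_23_P68155, was at 1.03 and 0.94 in mock cells, at 0.90 after *miR-486-5p* and at 1.35 after *miR-486-3p*. With *miR-486-5p* the level lay just below the lower mock array, and with *miR-486-3p* above the higher. The difference was 0.36 ± 0.10 (SE) after *miR-486-3p*, with a limma adjusted p of 0.0701, and it turned to -0.04 under median scaling. limma called it higher after this strand with quantile normalization, with probes well above background on all 4 arrays, with normexp and with an intensity trend. After *miR-486-5p* it was -0.09 ± 0.10 (SE) with a limma adjusted p of 0.575.

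*MAVS*, the adaptor of these helicases, fell on some probes and not on others. The probe with the brightest signal, A_33_P3244021, was at 2.87 and 2.86 in mock cells, at 2.43 after *miR-486-5p* and at 0.73 after *miR-486-3p*. The mock arrays were nearly equal here, and the *miR-486-3p* array stood well below the rest. It fell by 2.14 on the log2 scale (SE 0.09), a 4.39-fold fall with a limma adjusted p of 0.00762, while the difference after *miR-486-5p* was -0.43 with a limma adjusted p of 0.0807. Probe A_33_P3244026 was at 0.29 and 0.28 in mock cells, at -0.78 after *miR-486-5p* and at -0.18 after *miR-486-3p*. On this probe the *miR-486-5p* array was the lower of the transfected pair, with differences of -1.06 ± 0.09 (SE) and -0.47 ± 0.09 (SE) and limma adjusted p-values of 0.0475 and 0.0355.

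The remaining *MAVS* probes were not called. Probe A_19_P00319465 was at 0.30 and 0.79 in mock cells, the widest gap of the 15 probes, at -0.60 after *miR-486-5p* and at 0.55 after *miR-486-3p*. With *miR-486-3p* the level was between the mock arrays, and the difference of -1.14 ± 0.27 (SE) after *miR-486-5p* had a limma adjusted p of 0.0980. Probe A_33_P3272527 was at 0.67 and 0.65 in mock cells, at 0.86 after *miR-486-5p* and at 0.42 after *miR-486-3p*. It was the only *MAVS* probe that was higher after *miR-486-5p* than in both mock arrays, with a difference of 0.20 and a limma adjusted p of 0.222. The gene means, -0.61 after *miR-486-5p* and, with *miR-486-3p*, -0.71, therefore stand for probes that range from -1.14 to 0.20 and from -2.14 to 0.00. Taking the brightest probe alone gave -0.43 and -2.14. The array files do not say which transcripts each probe reads, and differences between transcripts and between probes cannot be told apart.

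*TLR3*, the endosomal sensor, was among the dimmest of these probes. Probe A_23_P29922 was at -3.12 and -3.52 in mock cells, at -3.28 after *miR-486-5p* and at -2.25 after *miR-486-3p*. Cells with *miR-486-5p* lay between the mock arrays, which were 0.393 apart, and cells with *miR-486-3p* above all others. The rise after *miR-486-3p* was 1.07 ± 0.22 (SE), or 2.10-fold, with a limma adjusted p of 0.0427. This call was lost on the authors' log2 values, after median scaling, after quantile normalization and with no filter on dim probes. The difference was 0.33 after normexp correction. After *miR-486-5p* it was 0.04 ± 0.22 (SE) with a limma adjusted p of 0.918, and its sign changed with the setting. It ranged from -0.16 to 0.23 with the mock array used, and was also below 0 under median scaling, quantile normalization and on the authors' log2 values.

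*EIF2AK2*, the gene of PKR, was slightly below both mock arrays after *miR-486-5p* and above both after *miR-486-3p*. Probe A_23_P142750 was at 2.96 and 2.75 in mock cells, at 2.66 after *miR-486-5p* and at 3.25 after *miR-486-3p*. Probe A_33_P3224858 was at -0.40 and -0.52 in mock cells, at -0.59 after *miR-486-5p* and at 0.27 after *miR-486-3p*. The order of the 4 arrays was the same on both probes. The second rose by 0.73 ± 0.10 (SE) after *miR-486-3p*, or 1.66-fold, with a limma adjusted p of 0.0227, and the first had a difference of 0.39 ± 0.14 (SE) with a limma adjusted p of 0.109. The differences after *miR-486-5p* were -0.19 and -0.13, with limma adjusted p-values of 0.381 and 0.424. The gene mean of 0.56 after *miR-486-3p* was exceeded by 28.0% of measured genes, close to the share of genes above 0.5. Under median scaling this mean was 0.16, and limma did not call the gene there or with no filter on dim probes.

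*TBK1*, the kinase that joins the arms, was higher than in mock cells on both transfected arrays. Probe A_23_P44768 was at 1.46 and 1.37 in mock cells, at 1.87 after *miR-486-5p* and at 2.01 after *miR-486-3p*. The transfected arrays differed little from each other, and both were above the mock arrays by more than the mock gap of 0.0946. The rise after *miR-486-3p* was 0.59 ± 0.10 (SE), or 1.51-fold, with a limma adjusted p of 0.0298. It was 0.19 under median scaling, and limma did not call it there or with no filter on dim probes. The difference after *miR-486-5p* was 0.46 ± 0.10 (SE) with a limma adjusted p of 0.0875, and it passed 0.5 when mock 1 was left out. limma called it higher after this strand with probes well above background on all 4 arrays, with normexp and with an intensity trend.

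The transcription factors *IRF3* and *IRF7* went opposite ways after *miR-486-3p*. Probe A_23_P27677 of *IRF3* was at 1.36 and 1.50 in mock cells, at 1.78 after *miR-486-5p* and at 0.71 after *miR-486-3p*. Probe A_33_P3327333 of *IRF3* was at 1.20 and 1.42 in mock cells, at 1.69 after *miR-486-5p* and at -0.12 after *miR-486-3p*. Both probes placed *miR-486-5p* above and *miR-486-3p* below the mock arrays. *IRF3* fell after *miR-486-3p*, with differences of -0.72 and -1.43 (SE 0.12 and 0.14), which is 1.65-fold and 2.69-fold, and limma adjusted p-values of 0.0273 and 0.0133. The differences after *miR-486-5p*, 0.35 and 0.38, had limma adjusted p-values of 0.147 and 0.179, though limma called *IRF3* higher with normexp and with an intensity trend.

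*IRF7* rose after both strands. Probe A_24_P378019 was at 2.06 and 2.10 in mock cells, at 3.09 after *miR-486-5p* and at 2.68 after *miR-486-3p*. Both transfected arrays were above the mock arrays, and *miR-486-5p* was highest. The rise was 1.01 ± 0.09 (SE) after *miR-486-5p*, or 2.01-fold, with a limma adjusted p of 0.0475, and 0.60 ± 0.09 (SE) after *miR-486-3p*, or 1.51-fold, with a limma adjusted p of 0.0241. Only 2.47% of measured genes had a larger difference after *miR-486-5p*, against 26.7% after *miR-486-3p*. Under median scaling the difference after *miR-486-3p* was 0.19, and limma did not call it. The call after *miR-486-5p*, like that of *MAVS*, was lost on the authors' log2 values and with no filter on dim probes, settings under which limma called no gene at all for this strand, although 7996 and 9219 genes then had an unadjusted p under 0.05.

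**Figure D2:**
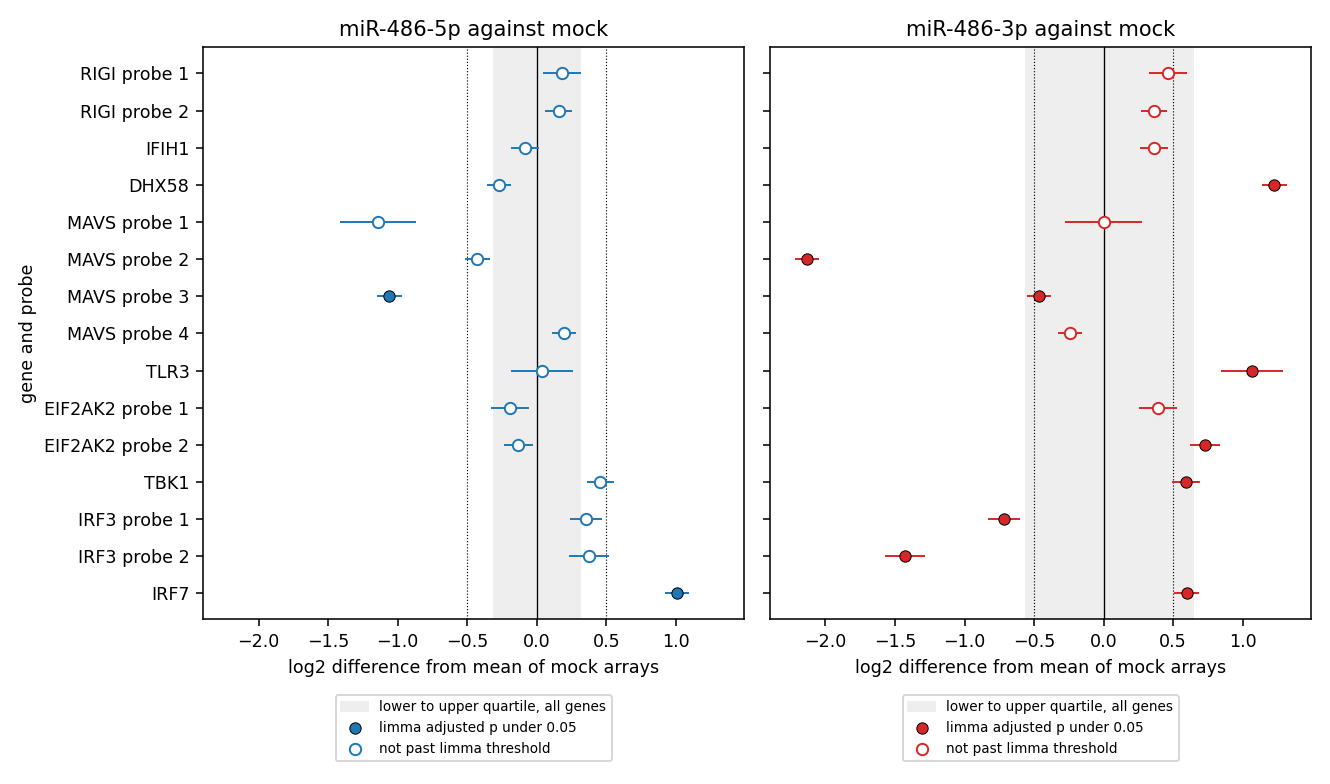
Log2 difference from the mock average (x axis) for each probe (y axis) after *miR-486-5p* (left) and *miR-486-3p* (right), with bars for the limma SE, filled points for a limma adjusted p under 0.05, dotted lines at -0.5 and 0.5 and a grey band from the lower to the upper quartile of all measured genes. After *miR-486-5p* 2 of 15 probes are filled, and after *miR-486-3p* 9 of 15, with *MAVS* probe 2 at -2.14 and *DHX58* at 1.23 as the extremes.

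The strands were then compared directly, as the *miR-486-3p* array minus the *miR-486-5p* array in the same limma fit, so the mock arrays enter only through the estimate of the spread. *DHX58* was higher after *miR-486-3p* by 1.50 ± 0.10 (SE), or 2.82-fold, with a limma adjusted p of 0.0125. *IRF3* was lower by 2.10-fold and 3.49-fold on its probes, at differences of -1.07 ± 0.13 and -1.81 ± 0.16 (SE) and limma adjusted p-values of 0.0224 and 0.0157. *DHX58* and *IRF3* were thus called between the strands on each of their probes. The dimmer *EIF2AK2* probe was higher by 0.86 ± 0.12 (SE), with a limma adjusted p of 0.0264, and its other probe had a difference of 0.59 and a limma adjusted p of 0.0763. *MAVS* was called in both directions. Its probe A_33_P3244021 was lower after *miR-486-3p* by 3.27-fold (limma adjusted p of 0.0119), and its probe A_33_P3244026 was higher by 1.51-fold (limma adjusted p of 0.0351). In all, 3 of the 9 genes had a probe called higher, beside 26.7% of tested genes, and 2 had a probe called lower, beside 27.3%. *RIGI*, *IFIH1*, *TLR3*, *TBK1* and *IRF7* were not called between the strands. Their differences ran from -0.41 ± 0.10 (SE) for *IRF7* to 1.03 ± 0.26 (SE) for *TLR3*, with limma adjusted p-values of 0.0673 and 0.0666.

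The settings moved sizes more than directions. Across 9 other settings, every gene kept its sign after *miR-486-3p* except *IFIH1*, which turned under median scaling, and every gene kept its sign after *miR-486-5p* except *TLR3*. The lowest and highest values after *miR-486-3p* were 0.56 and 1.24 for *DHX58*, 0.33 and 1.26 for *TLR3*, and -1.48 and -0.72 for *IRF3*. After *miR-486-5p*, *IRF7* stayed between 0.88 and 1.03.

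**Figure D3:**
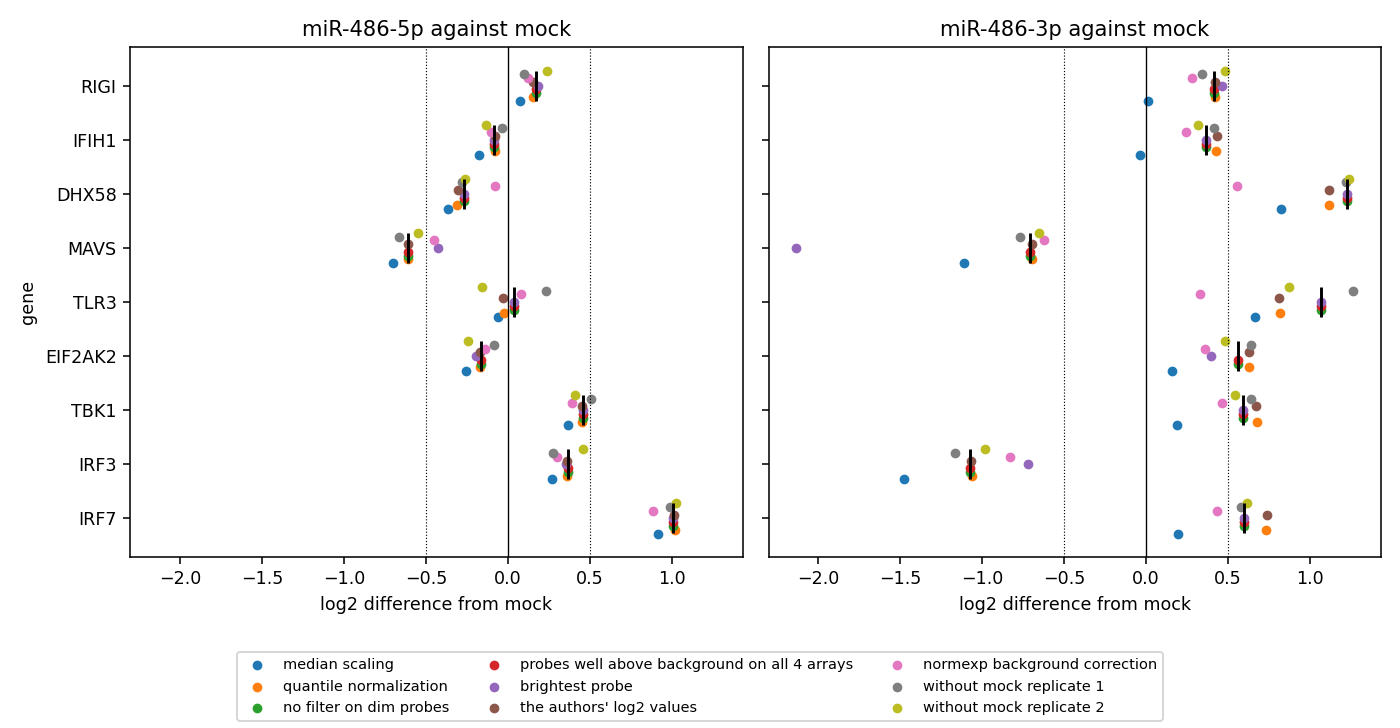
Log2 difference from mock (x axis) of each gene (y axis) after *miR-486-5p* (left) and *miR-486-3p* (right), with a black bar for the main value, a colored point for each of 9 other settings and dotted lines at -0.5 and 0.5. *IRF7* after *miR-486-5p* stays above 0.5 and *MAVS* and *IRF3* after *miR-486-3p* stay below -0.5 in every setting drawn, while median scaling shifts the points of the right panel to the left and *IFIH1* with it to -0.04.

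To place the 9 genes in their pathways, 8 lists of further genes were counted, 89 genes in all, of which 70 were measured. With *miR-486-3p*, 25 of the 70 were above 0.5 and 18 below -0.5, and limma called 27 with a probe higher and 20 with a probe lower. Over all genes the shares were 30.4% above, 27.2% below, 31.9% called higher and 31.6% called lower, so the 70 genes were near them. With *miR-486-5p* the numbers were 12 above, 6 below, 6 called higher and 4 called lower. The shares over all genes for that strand were 13.8%, 15.9%, 3.58% and 6.66%. The medians over the 70 were 0.10 with *miR-486-3p* and 0.12 with *miR-486-5p*. Nothing was tested for a list as a whole. The list values below are those of the main setting, and normexp correction made the differences of several dim list probes smaller. After *miR-486-3p*, *DDX60* went from 1.53 to 0.71, *EIF2AK3* from 1.88 to 0.98 and *IFNE* from 1.24 to 0.61.

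Other effectors that bind double-stranded RNA had 9 of 15 measured genes above 0.5 after *miR-486-3p*, with 2 below -0.5 and a median of 0.73, where 30.4% of all genes were above and 27.2% below. limma called 9 of them higher and 3 lower, beside 31.9% and 31.6% of all genes. *IFIT2*, whose product belongs to a family of interferon-induced proteins that act on RNA and translation, rose on both its probes after *miR-486-3p*, by 2.47 and 2.48, with limma adjusted p-values of 0.00774 and 0.00762. On those probes its differences after *miR-486-5p* were -0.56 and -0.31, which limma did not call. *DDX60*, a helicase tied to RIG-I signaling, rose by 1.53 after *miR-486-3p* (limma adjusted p of 0.00862) and was not called at -0.59 after *miR-486-5p* (adjusted p of 0.0640 in limma). On the *miR-486-5p* side this list had 1 gene above 0.5 and 3 below -0.5, beside 13.8% and 15.9% of all genes, and a median of -0.13. Over all tested genes limma called 3.58% higher and 6.66% lower after that strand. The 2 genes of this list that limma called lower with *miR-486-5p* were *OAS3* and *OASL*, named after their values were seen. Each had a probe that was too dim to stand above background once *miR-486-5p* was transfected, so their differences of -0.60 and -1.64 are bounds. limma used the measured dim signals instead, so its calls do not refer to these bounds.

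The kinases that, like PKR, act on eIF2 alpha, together with their target and its phosphatase subunits, had 3 of 6 genes above 0.5 and 1 below -0.5 with *miR-486-3p*, and limma called 3 higher and 1 lower, against 30.4% and 27.2% of all genes past the limits and 31.9% and 31.6% called. *EIF2AK3*, the kinase PERK of the endoplasmic reticulum, rose by 1.88 ± 0.09 (SE) with a limma adjusted p of 0.00762. *PPP1R15A*, which directs a phosphatase to eIF2 alpha, rose by 1.16 ± 0.13 (SE) with a limma adjusted p of 0.0148. Their differences after *miR-486-5p* were 0.39 and 0.84, and limma called none of the 6 genes in this list, of which 1 was above 0.5 and none below. That strand had 13.8% of all genes above 0.5 and 15.9% below -0.5, with 3.58% called higher and 6.66% lower.

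Regulators and relays of the RIG-I-like receptors had 2 of 23 genes above 0.5 after *miR-486-3p* and 7 below -0.5, with a median of -0.06 and limma calls for 4 higher and 9 lower. Of all genes, 30.4% were above and 27.2% below, so the number below was near the share over the array. Over all tested genes limma called 31.9% higher and 31.6% lower. *RNF125*, a ubiquitin ligase that acts on RIG-I and MAVS, fell on each of its 3 probes, with differences of -1.90, -1.44 and -1.80 and limma adjusted p-values of 0.00762, 0.0139 and 0.00936. With normexp correction these differences were -0.44, -0.30 and -1.11. *TRAF2*, an adaptor that binds MAVS, fell on both probes, with differences of -1.56 and -1.21 and limma adjusted p-values of 0.00833 and 0.00956. After *miR-486-5p*, 5 of the 23 were above 0.5 and 1 below -0.5, beside 13.8% and 15.9% of all genes. limma called 3 higher and none lower after that strand, beside 3.58% and 6.66% of tested genes. *NLRC5* rose by 0.96 after *miR-486-5p* (limma adjusted p of 0.0475) and by 0.86 after *miR-486-3p* (limma adjusted p of 0.0136). *PCBP2*, which promotes the breakdown of MAVS, had probes that disagreed: the dimmer rose by 1.41 after *miR-486-5p* and fell by 0.47 after *miR-486-3p* (limma adjusted p-values of 0.0475 and 0.0345), and the brighter had 0.47 and 0.97 (limma adjusted p-values of 0.0723 and 0.0119).

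Among the relays of endosomal Toll-like receptors, 1 of 8 genes exceeded 0.5 with *miR-486-3p* and 4 were below -0.5, beside 30.4% and 27.2% of all genes. limma called 1 of them higher (*TLR9*, at 2.52, also named after its value was seen) and 3 lower, beside 31.9% and 31.6% of tested genes. *IRAK1*, a kinase downstream of MyD88, fell on both probes, with differences of -2.49 and -2.23, each with a limma adjusted p of 0.00762. *CNPY3*, a chaperone of Toll-like receptors, fell on both probes, with differences of -0.86 and -0.76 and limma adjusted p-values of 0.0177 and 0.0162. *TICAM1*, the adaptor TRIF that TLR3 uses, had differences of opposite sign after the strands. Its brighter probe went from 4.39 and 4.38 in mock cells to 5.06 after *miR-486-5p* and to 3.64 after *miR-486-3p*. The fall of 0.74 after *miR-486-3p* had a limma adjusted p of 0.0169, and the difference of 0.68 after *miR-486-5p* had 0.0538. After *miR-486-5p* limma called 1 gene of this list lower and none higher, beside 6.66% and 3.58% of tested genes. That gene was again *TLR9*, whose -0.17 is a bound, while limma used its measured dim signal. For that strand 1 gene was above 0.5 and none below -0.5, beside 13.8% and 15.9% of all genes.

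In the DNA sensing arm, which also runs through TBK1 and IRF3, 4 genes were measured. *STING1*, its adaptor, was at 2.79 and 2.71 in mock cells, at 1.32 after *miR-486-5p* and at 3.29 after *miR-486-3p*. It fell by 1.43 after *miR-486-5p* (limma adjusted p of 0.0475) and rose by 0.54 after *miR-486-3p* (limma adjusted p of 0.0336). *CGAS*, the sensor that makes the signal for STING, fell by 1.48 after *miR-486-3p* (limma adjusted p of 0.00931), with -0.04 after *miR-486-5p*. *TRIM56*, a ubiquitin ligase of this arm, rose by 1.70 after *miR-486-3p* (limma adjusted p of 0.00839), with 0.62 after *miR-486-5p* (limma adjusted p of 0.0637). Of the list, 2 genes were above 0.5 and 1 was below -0.5 with *miR-486-3p*, beside 30.4% and 27.2% of all genes. With *miR-486-5p* the numbers were 1 and 1, beside 13.8% and 15.9%.

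Other interferon regulatory factors were measured for 4 genes. *IRF9*, which works with STAT2 on response elements, rose after both strands, by 0.93 (limma adjusted p of 0.0488) and 1.77 (limma adjusted p of 0.00793). *IRF1* rose by 1.44 after *miR-486-3p* (limma adjusted p of 0.0121), with 0.24 after *miR-486-5p*. *IRF5* had -0.66 after *miR-486-5p* (limma adjusted p of 0.0562) and fell by 1.15 after *miR-486-3p* (limma adjusted p of 0.0104). In this list 3 of 4 exceeded 0.5 with *miR-486-3p* and 1 was below -0.5, beside 30.4% and 27.2% of all genes. With *miR-486-5p* the numbers were 2 and 1, beside 13.8% and 15.9%.

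The products of the pathway were mostly out of range. Of 11 interferon and cytokine genes, 2 were measured. *IFNB1*, an interferon gene that IRF3 switches on, was not well above background on any of the 4 arrays, and neither were *CCL5*, *CXCL10*, *CXCL11*, *IFNA2*, *IFNK*, *IFNL1* and *IFNL3*. *IFNE*, an interferon best known from epithelium of the reproductive tract, rose after both strands, by 1.52 (limma adjusted p of 0.0475) and 1.24 (limma adjusted p of 0.00924). *IFNL2* had 0.34 and 0.22 and was not called, and its near-identical neighbor *IFNL3* makes the reading uncertain. Of the receptors and JAK-STAT genes that read interferon, 4 of 8 exceeded 0.5 with *miR-486-3p* and 2 were below -0.5, beside 30.4% and 27.2% of all genes. After *miR-486-5p* none of 8 was past either limit, beside 13.8% and 15.9% of all genes. With *miR-486-3p*, *STAT2* rose by 1.35 (limma adjusted p of 0.00881) and *JAK1* by 1.21 (limma adjusted p of 0.00953). *IFNAR1*, the receptor chain, had 0.45 after *miR-486-5p* (limma adjusted p of 0.113) and 0.08 after *miR-486-3p*.

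**Figure D4:**
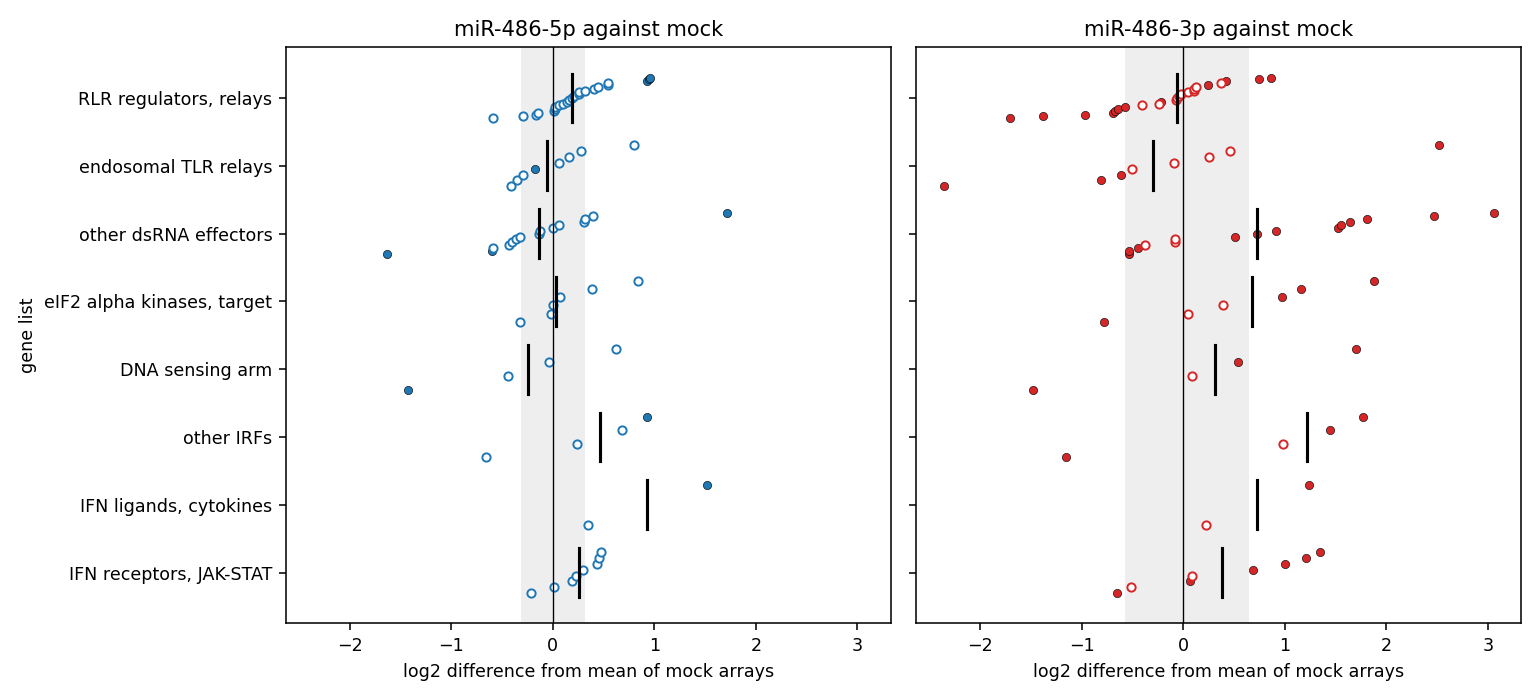
Log2 difference from the mock average (x axis) of each measured gene in the 8 lists (y axis) after *miR-486-5p* (left) and *miR-486-3p* (right), with filled points for genes called by limma, a black bar for the list median and a grey band from the lower to the upper quartile of all measured genes. The right panel is wider, with *IFIT2* at 2.48 and *IRAK1* at -2.36, and 4 of the 8 list medians there lie above the band (other double-stranded RNA effectors, eIF2 alpha kinases, other interferon regulatory factors, and interferon ligands). In the left panel the medians of other interferon regulatory factors (0.46) and interferon ligands (0.93) also lie above the band. The median of interferon ligands rests on 2 genes in each panel. The values of *OAS2*, *OAS3*, *OASL* and *TLR9* in the left panel and of *OAS3* in the right panel are bounds.

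The cell type was checked against marker lists. Of 6 epithelial markers, 4 were well above background on all arrays and *CDH1* on none, and their summed signal, relative to the 75th percentile, was 199 and 196 in mock cells, 138 with *miR-486-5p* and 146 with *miR-486-3p*. Of 7 leukocyte markers with a probe, 5 were well above background on all arrays and *CLEC4C*, of plasmacytoid dendritic cells, on none, with sums of 1.52 and 1.47 in mock cells, 1.35 with *miR-486-5p* and 1.97 with *miR-486-3p*. Endothelial markers summed to between 0.511 and 0.571, and fibroblast markers to between 0.153 and 0.184, on the 4 arrays. The part of these shifts in the results above was not tested. The RNA was of whole cultures, in which fewer cells with a transcript and less of it per cell cannot be told apart.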

How the data were processed

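A549 RNA was labeled with Cy3 and hybridized to 4 one-color Agilent arrays. The authors deposited the Feature Extraction (version 12.1.1.1) output, with a background-corrected intensity per spot, and their own log2 table, of median 2.76 on every array. The log2 of the processed signal was taken and the 75th percentile of the array subtracted. Control spots and outlier spots (50 to 72 per array) were left out, and spots of a probe were averaged. Probes were named by accession through RefSeq (GRCh38.p14, for names only), and 31104 of the 33080 probes with a RefSeq accession could be named. A probe entered a comparison when the software called it well above background in either group, the mock pair or the transfected array. A group not well above background was raised to the lowest signal that was, which makes its difference a bound. None of the 15 probes of the 9 genes needed this. limma 3.58.1 (R 4.3.3) was fitted to the signals without this raising, over probes well above background in any of the groups. It was checked on simulated data in which every array had the spread estimated from the mock arrays. That check therefore cannot show whether transfected arrays vary as the mock arrays do. The number of arrays limits the precision.

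Named genes were the 9 genes, *IFNB1*, *TICAM1*, and for each list and strand the 2 with the largest difference among genes well above background on all arrays. Some genes under this rule are not reported here. Genes, lists and tests were chosen with earlier results of these data known. Alternatives were other scalings, filters, probe rules, the limit of 1, normexp (offset 50), an intensity trend, the authors' log2 values, the methods' t-test and each mock array left out.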

Additional observations from a re-analysis of the deposited data

How the results depend on the processing

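Of the differences of single genes recomputed under other settings, 124 moved by less than the spread between the mock arrays and 38 by more. Many of the 124 could not have moved further. All 15 probes were well above background on all 4 arrays, so the settings that filter dim probes returned the main values. Leaving out a mock array always shifts a difference by less than that spread, taken as the SD of the mock levels. The brightest-probe setting cannot move a gene with 1 probe. The count above 0.5 after *miR-486-3p* was 5, and became 2 under median scaling, 1 with normexp and 2 at a limit of 1. The count below -0.5 after this strand was 2, and 1 at a limit of 1. After *miR-486-5p* the count above 0.5 ranged from 1 to 2 when a mock array was left out (2 without mock 1, which adds *TBK1*), and the count below -0.5 was 0 with the brightest probe, with normexp and at a limit of 1. limma called 7 genes after *miR-486-3p*, but 3 under median scaling, 4 with no filter on dim probes, 6 on the authors' log2 values, and all 9 with probes well above background on all 4 arrays, with normexp and with an intensity trend. Calls were common across the array at the last 3 settings. Over all tested genes, those probes gave 5311 called higher and 5532 lower of 14960. Normexp gave 7671 and 5751 of 16662, and the intensity trend 6358 and 6161 of 16662. Median scaling gave 3307 and 7821 of 16662, and no filter 4577 and 4116 of 22439. The authors' log2 values gave 4810 and 5216 of 16662. In place of limma, the methods' t-test found 3 of the 9 genes unadjusted and 0 adjusted after *miR-486-3p*. After *miR-486-5p* limma called 2 genes, but 0 with no filter and 0 on the authors' log2 values, and 4 with normexp and 4 with an intensity trend (which add *TBK1* and *IRF3*). The adjusted t-test found 0 and the unadjusted 3. The t-test was not counted over all genes, so its numbers have no share beside them. Between the strands limma called 4 genes, 2 with no filter, and 7 with probes well above background on all 4 arrays, with normexp and with an intensity trend. For this contrast, shares over all tested genes are given for the main fit only, at 26.7% higher and 27.3% lower. A change in these counts is therefore not a result about the 9 genes. With no filter 58197 probes were tested in place of 33498. For the other settings the cause was not tested. No sign turned except those of *IFIH1* and *TLR3* given above.

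Across all tested genes limma called 596 higher and 1109 lower after *miR-486-5p*, 1049 and 2462 under median scaling, 3695 and 3845 with normexp, and 3699 and 4170 with an intensity trend. Leaving out a mock array leaves no residual degree of freedom, so it gives differences but no test. All arrays shared 1 slide, so no slide term could be fitted. No paired analysis was possible because each strand has 1 array, and at most 1 replicate number is shared between groups. With 1 array per strand, the spread after transfection is not measured.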

Other observations

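The genes most like 3 of the sensors over the 4 arrays were looked up as a description, by the distance between log2 profiles of the brightest probe of each gene, centered on their own means, over 14945 genes. Those nearest to *RIGI* were *LOC401557* (distance 0.0157) and *CACNA1C-AS1* (0.0263). For *IFIH1* they were *SNORD38A* (0.00935) and *KTN1* (0.0210), and for *EIF2AK2* they were *PTGES2-DT* (0.0404) and *PHTF2* (0.0523). With 4 arrays, a small distance says only that these probes gave nearly the same differences on these arrays.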
